A study of Mus musculus with 22 samples.

Results

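The interferon-stimulated genes described here are 9 genes of mouse liver, Irf7, Usp18, Isg15, Ifit1, Ifit2, Ifit3, Oasl2, Rsad2 and Cxcl10. They were chosen by name, as genes known to be induced by interferon, from the 18716 rows of a table of RPKM (read counts divided by transcript length and by library size). All 9 were found, and all 9 were at or above 0.5 RPKM in each of the 22 libraries. The libraries were made from polyadenylated RNA of whole livers, all of the genotype Fah-/-, which names the disrupted gene of fumarylacetoacetate hydrolase, the enzyme that ends tyrosine breakdown. Libraries are called livers below, although the labels do not say that each came from a separate animal. The YC group held 7 libraries from mice that had received hepatocytes labelled td and were then given an agent labelled YC, with livers taken on day 28 after NTBC was withdrawn. NTBC blocks an earlier step of tyrosine breakdown and so protects livers without Fah. The vehicle group held 8 libraries with the same transplant and the same 28 days, given vehicle. The D0 group held 7 libraries of day 0, labelled as normal liver and with no transplant named. The study asked how YC acts on the transplanted hepatocytes, and dose, sex and age were not used here.

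Type I interferons bind the receptor of Ifnar1 and Ifnar2, whose kinases Jak1 and Tyk2 activate transcription factors in the cytoplasm. A complex that holds Stat2 and Irf9 then attaches to a promoter element rich in GAAA and switches on many antiviral genes. In liver, hepatocytes, macrophages and endothelial cells can all respond, while plasmacytoid dendritic cells and macrophages are known producers. Interferon gamma, made by T and NK cells, acts through its own receptor and drives a partly separate set of genes.

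The promoter element was looked for in the RefSeq promoters of the members, on the build GRCm38.p6, which has the coordinates of mm10. It is the sequence through which the pathway is known to act on many antiviral genes, and its action on the members was not tested here. The window ran from 250 bases before the annotated start to 50 after it, and 8 of the 9 members had at least one, all but Usp18, with 2 windows for Ifit2. The letters GAAANNGAAA were searched on both strands, with overlapping matches counted. They were found in 5 of the members' 9 windows, against 3.44% of 32851 promoters, and so in 5 of 8 members, against 3.99% of 27025 genes. The 5 stretches are printed 5′ to 3′ on the gene's strand, with the matches in capitals (TTTC is GAAA read on the other strand), and lie at chr4:156200855-156200916 for Isg15, chr19:34640765-34640833 for Ifit1, chr19:34583353-34583436 for Ifit3, chr12:26456543-26456592 for Rsad2 and chr5:92349073-92349122 for Cxcl10.
Isg15: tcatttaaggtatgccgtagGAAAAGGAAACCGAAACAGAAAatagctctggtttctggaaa
Ifit1: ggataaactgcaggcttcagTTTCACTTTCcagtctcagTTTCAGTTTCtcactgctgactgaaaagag
Ifit3: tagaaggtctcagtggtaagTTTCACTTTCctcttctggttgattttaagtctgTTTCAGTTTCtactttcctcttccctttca
Rsad2: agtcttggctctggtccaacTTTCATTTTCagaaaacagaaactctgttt
Cxcl10: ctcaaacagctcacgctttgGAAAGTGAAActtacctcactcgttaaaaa
Isg15 held 3 overlapping matches, Ifit1 and Ifit3 held 2 each, and Rsad2 and Cxcl10 held 1 each. Ifit2, Irf7 and Oasl2 had no match, which says only that these letters are not in their windows. Among the 5 genes with a match, 4 fell in YC livers against vehicle livers and 1, Rsad2, was called in no comparison. Among those without a match, Irf7 fell as well, while Ifit2 and Oasl2 were not called between YC and vehicle livers.

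Depth, estimated from the steps of low values, was 50100000 to 82750000 reads or fragments per YC library, 50950000 to 71600000 per vehicle library and 51200000 to 66000000 per D0 library. At these depths a member had between about 139 reads (the lowest library of Ifit1) and about 39791 reads (the highest of Irf7). The part of counting error in the spread between livers was not computed. The liver label was borne out by 9 hepatocyte markers, which summed to at least 32358 RPKM in every library. Fah had 31.5 to 407 RPKM in YC livers (median 128), 271 to 542 RPKM in vehicle livers (median 401) and 21.1 to 38.7 RPKM in D0 livers (median 28.6), and the labels do not say which part of the gene is disrupted, so this level does not check the genotype. The lowest YC values of Fah, 31.5 RPKM in YC 7 and 41.3 RPKM in YC 6, lay near the D0 range. Fah was lower in YC than in vehicle livers (log2 fold change -1.61 ± 0.40 SE, limma adjusted p = 0.00194). Some libraries stood apart. Skeletal muscle transcripts (Acta1, Ckm and Myh4) summed to 2134 RPKM in vehicle 3, against at most 2.18 RPKM in YC livers and 0.153 RPKM in D0 livers. Pancreatic acinar transcripts (Prss2, Cpa1, Ctrb1 and Cel) summed to 602 RPKM in YC 4 and 208 RPKM in vehicle 1, against at most 0.996 RPKM in D0 livers. Transcripts of 4 Y-linked genes summed to more than 1 RPKM in YC 1, YC 2 and YC 3 and in all 8 vehicle livers, and to at most 0.0454 RPKM in D0 livers, so the difference between vehicle and D0 livers cannot be told apart from a difference in the sex of the cells, nor from the transplant, the 28 days and the loss of NTBC that also separate them. In bulk liver, fewer cells of a type and less RNA per cell cannot be told apart.

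In vehicle livers 7 of the 9 members were higher than in D0 livers, by 1.84-fold to 5.49-fold, and Irf7 and Usp18 moved the most. In YC livers 5 of the 9, Irf7, Isg15, Ifit1, Ifit3 and Cxcl10, were lower than in vehicle livers, by 1.71-fold to 2.44-fold, and none was called higher. Usp18, Ifit2 and Oasl2 were called higher than D0 in YC livers, as were Irf7 and Ifit1, and were not called between YC and vehicle livers. Tests were made with limma on log2(RPKM + 0.5) over 12537 genes, and a gene was called at a Benjamini-Hochberg adjusted p under 0.05. Of all genes tested in YC minus vehicle, 6.14% were called lower and 44.6% higher. Of those in vehicle minus D0, 28.2% were called higher and 29.9% lower. In YC minus D0, where 5 members were called higher and 0 lower, the shares of all genes were 41.2% higher and 12.3% lower. At an unadjusted p under 0.05 the counts of members in all 3 comparisons were the same as at the adjusted one, including the counts of 0.

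The background of YC minus vehicle leans to one side. The median log2 fold change of all genes was 0.31 for YC minus vehicle livers, 0.00 for vehicle minus D0 livers and 0.25 for YC minus D0 livers, while that of the 9 members was -0.77, 1.36 and 0.59 in the same order. When libraries were rescaled by median ratios, the median of all genes moved by -0.30 in the comparisons with YC livers, and 2280 genes were called higher and 2098 lower in YC minus vehicle, in place of 5587 and 770. In YC minus D0 the rescaled counts were 3238 higher and 3587 lower, in place of 5162 and 1537. The members' median became -1.05, 1.37 and 0.33. After rescaling, 6 members were called lower and 0 higher in YC minus vehicle, Oasl2 being the one added, 7 were called higher in vehicle minus D0, and 4 were called higher and 1 lower in YC minus D0. Each group enters 2 of the 3 comparisons, so their values are not independent of each other.

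**Figure D1:**
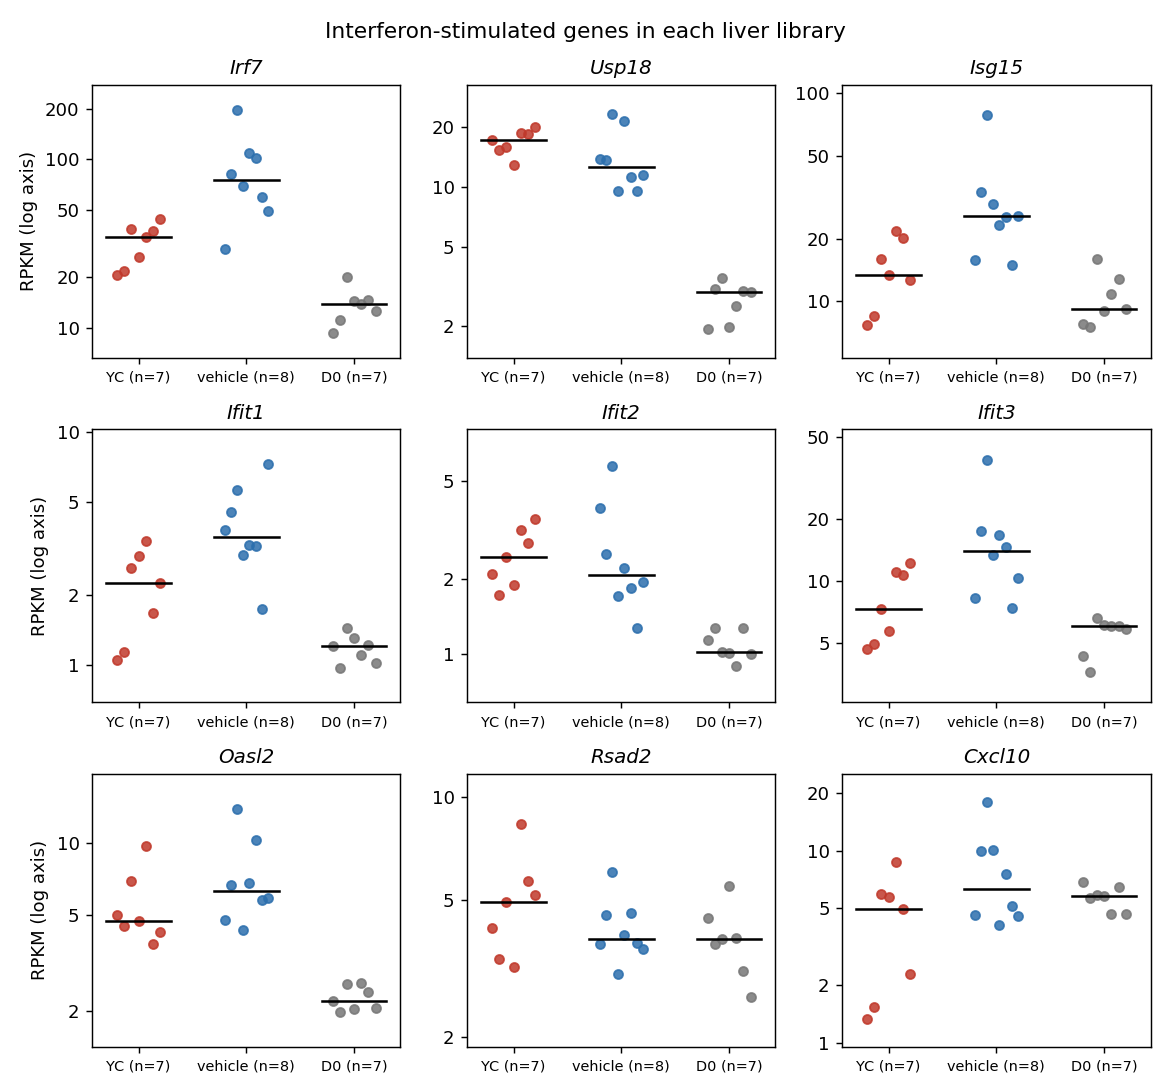
RPKM of the 9 interferon-stimulated genes on log axes in 7 YC, 8 vehicle and 7 D0 livers, with each point a library and each line a group median. Irf7, Ifit3 and Isg15 stand highest in vehicle livers, Usp18 stands in YC and vehicle livers alike above all D0 livers, and Rsad2 lies in the same range in all 3 groups; the highest vehicle point of 8 genes is vehicle 3.

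Irf7 is a transcription factor that is itself induced by interferon and then drives further production of interferon alpha, and it lies on chromosome 7 (mm10, 141262706 to 141266481, minus strand). It had 20.8 RPKM in the lowest YC liver, a median of 35.0 and 44.3 in the highest, against 29.4, 76.0 and 197 RPKM in vehicle livers and 9.35, 14.0 and 20.1 RPKM in D0 livers. All vehicle and all YC livers lay above the highest D0 liver, and 3 of 7 YC livers lay below the lowest vehicle liver, vehicle 1. The lowest YC livers were YC 1 and YC 2, and vehicle 3 stood well above the other vehicle livers. Irf7 fell 2.44-fold in YC livers against vehicle livers (log2 fold change -1.28 ± 0.28 SE, adjusted p = 0.000623) and was 5.49-fold above D0 in vehicle livers (log2 fold change 2.46 ± 0.28, adjusted p = 1.78e-07). YC livers remained 2.25-fold above D0 livers (log2 fold change 1.17 ± 0.29, adjusted p = 0.00141). Without vehicle 3 the log2 fold changes were -1.09 (adjusted p = 0.000918) in YC minus vehicle and 2.26 in vehicle minus D0. With the YC group limited to the 3 livers with Y-linked transcripts, YC minus D0 was 0.92 with an adjusted p of 0.0508.

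Usp18 removes the Isg15 protein from its targets and blocks the type I receptor at Ifnar2, a brake on the pathway, and it lies on chromosome 6 (121245906 to 121270917, plus strand). Its lowest, median and highest levels were 12.9, 17.1 and 20.03 RPKM in YC livers, against 9.49, 12.6 and 23.2 RPKM in vehicle livers and 1.93, 2.97 and 3.47 RPKM in D0 livers. Every YC and vehicle liver lay above every D0 liver, while the YC livers all lay inside the range of the vehicle livers. Usp18 was 4.44-fold above D0 in vehicle livers (log2 fold change 2.15 ± 0.17 SE, adjusted p = 1.16e-09) and 5.48-fold above D0 in YC livers (2.45 ± 0.18, adjusted p = 1.26e-10). Between YC and vehicle livers the log2 fold change was 0.30 ± 0.17 (adjusted p = 0.146), near the median of all genes, and after rescaling it was -0.03. Without vehicle 3 it was 0.41 and passed the threshold (adjusted p = 0.0356).

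The plot of Irf7 against Usp18 sets a member that fell in YC livers beside one that was not called there. The ratio of Irf7 to Usp18, each in RPKM, ran from 1.21 to 2.43 in YC livers (median 2.04), from 2.14 to 9.16 in vehicle livers (median 6.18) and from 3.67 to 7.39 in D0 livers (median 4.91). The highest YC ratio lay above the lowest vehicle ratio, which is that of vehicle 1, and below every D0 ratio. The ratio was picked after the values were seen and was not tested, and as a ratio within a library it does not move with the scaling.

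**Figure D2:**
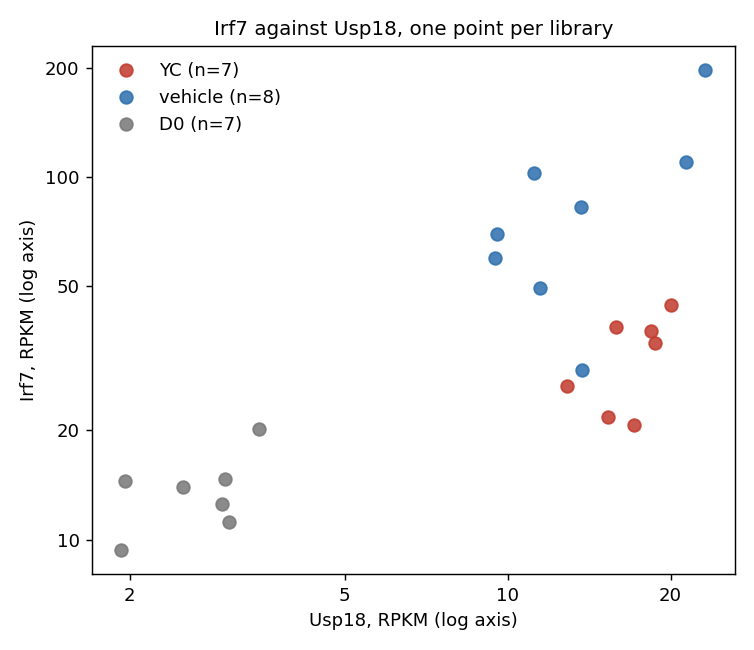
Irf7 against Usp18 in RPKM on log axes, 1 point for each of 7 YC, 8 vehicle and 7 D0 livers. YC and vehicle livers share the Usp18 range of 9.49 to 23.2 RPKM, and Irf7 spans 20.8 to 44.3 RPKM in YC livers and 29.4 to 197 RPKM in vehicle livers, with 3 of 7 YC livers below the lowest vehicle liver.

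Isg15 is a small ubiquitin-like protein that is joined to other proteins and is also secreted, and it lies on chromosome 4 (156199424 to 156200818, minus strand). Its levels were 7.74 RPKM at the lowest, 13.4 at the median and 21.7 at the highest in YC livers, against 15.0, 25.6 and 77.8 RPKM in vehicle livers and 7.50, 9.20 and 15.9 RPKM in D0 livers. YC 1 and YC 2 were the lowest YC livers, 4 of 7 YC livers lay below the lowest vehicle liver, and 6 of 8 vehicle livers lay above the highest D0 liver. Isg15 fell 1.97-fold in YC livers against vehicle livers (log2 fold change -0.98 ± 0.27 SE, adjusted p = 0.00525). It was 2.59-fold above D0 in vehicle livers (1.37 ± 0.27, adjusted p = 0.0002), and YC minus D0 was 0.39 ± 0.28 (adjusted p = 0.253). Leaving out vehicle 3 gave -0.76 in YC minus vehicle (adjusted p = 0.00815) and 1.15 in vehicle minus D0.

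The Ifit proteins bind viral RNA and hold back its translation, and their genes lie side by side on chromosome 19, Ifit2 at 34550694 to 34576419, Ifit3 at 34583531 to 34588731 and Ifit1 at 34640871 to 34650009, all on the plus strand. Ifit1 recognises RNA caps that lack a host methyl group, and in human cells Ifit3 binds and steadies Ifit1 in complexes that Ifit2 can join. The cluster also holds the close copies Ifit3b, Ifit1bl1 and Ifit1bl2, and how reads shared between copies were assigned is not given, so single values of Ifit1 and Ifit3 carry that uncertainty. Ifit1 had 1.05 RPKM in the lowest YC liver, a median of 2.25 and 3.40 in the highest, against 1.75, 3.54 and 7.33 RPKM in vehicle livers and 0.972, 1.21 and 1.44 RPKM in D0 livers. Here vehicle 8 and not vehicle 3 was the highest, 3 of 7 YC livers lay below all vehicle livers, and no vehicle liver reached down to the D0 range. Ifit1 fell 1.71-fold in YC livers against vehicle livers (log2 fold change -0.77 ± 0.22 SE, adjusted p = 0.00563) and was 2.56-fold above D0 in vehicle livers (1.36 ± 0.22, adjusted p = 1.72e-05). In YC minus D0 it was higher (log2 fold change 0.59 ± 0.23, adjusted p = 0.0323), a call that was lost after rescaling (0.33, adjusted p = 0.232) and without any one of YC 3, YC 4, YC 5, D0 2 or D0 7 (adjusted p up to 0.081).

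Ifit3 also fell in YC livers against vehicle livers. It had 4.68, 7.33 and 12.2 RPKM in the lowest, median and highest YC liver, against 7.44, 14.0 and 39.0 RPKM in vehicle livers and 3.61, 6.03 and 6.59 RPKM in D0 livers. The vehicle livers lay above all D0 livers, 4 of 7 YC livers lay below all vehicle livers, and 4 of 7 YC livers lay above all D0 livers. Ifit3 fell 1.79-fold in YC livers against vehicle livers (log2 fold change -0.84 ± 0.27 SE, adjusted p = 0.0122) and was 2.45-fold above D0 in vehicle livers (1.29 ± 0.27, adjusted p = 0.000279). YC minus D0 was 0.45 ± 0.28 (adjusted p = 0.173). Without vehicle 3, YC minus vehicle was -0.63 for Ifit3 (adjusted p = 0.023) and -0.70 for Ifit1 (adjusted p = 0.0129).

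Ifit2 differed from its neighbours in YC livers. Its levels ran from 1.73 to 3.50 RPKM in YC livers (median 2.45), from 1.28 to 5.74 RPKM in vehicle livers (median 2.09) and from 0.893 to 1.28 RPKM in D0 livers (median 1.01). All YC and vehicle livers lay above all D0 livers, and the YC livers lay wholly inside the vehicle range. It was 1.84-fold above D0 in vehicle livers (log2 fold change 0.88 ± 0.20 SE, adjusted p = 0.000654) and 1.87-fold above D0 in YC livers (0.90 ± 0.21, adjusted p = 0.00075). YC minus vehicle was 0.02 ± 0.20 (adjusted p = 0.934), and -0.26 after rescaling. The ratio of Ifit1 to Ifit2 within a library, picked after the values were seen and not tested, had a median of 0.659 in YC livers (0.504 to 1.55), 1.60 in vehicle livers (0.978 to 3.76) and 1.06 in D0 livers (0.762 to 1.42).

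Oasl2 belongs to the oligoadenylate synthetase family, whose products activate an RNase that destroys viral RNA, and it lies on chromosome 5 (114896936 to 114912234, plus strand). It had 3.81, 4.75 and 9.71 RPKM in the lowest, median and highest YC liver, against 4.33, 6.30 and 13.9 RPKM in vehicle livers and 1.97, 2.19 and 2.61 RPKM in D0 livers. All livers of day 28 lay above all D0 livers, and YC and vehicle livers overlapped with 2 YC livers below the vehicle range. Oasl2 was 2.66-fold above D0 in vehicle livers (log2 fold change 1.41 ± 0.20 SE, adjusted p = 3.51e-06) and 2.11-fold above D0 in YC livers (1.08 ± 0.21, adjusted p = 0.000126). YC minus vehicle was -0.33 ± 0.20 (adjusted p = 0.167), and it passed the threshold after rescaling (-0.65, adjusted p = 0.0122) and without YC 5 (-0.47, adjusted p = 0.0449).

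Rsad2, or viperin, makes a nucleotide that stops viral RNA synthesis, and it lies on chromosome 12 (26442746 to 26456452, minus strand). It had 3.18, 4.94 and 8.32 RPKM in the lowest, median and highest YC liver, against 3.05, 3.85 and 6.03 RPKM in vehicle livers and 2.61, 3.86 and 5.50 RPKM in D0 livers. The 3 groups overlapped over most of their range, with YC 5 alone above the vehicle livers. No comparison was called, with log2 fold changes of 0.20 ± 0.17 SE in YC minus vehicle (adjusted p = 0.336), 0.09 ± 0.17 in vehicle minus D0 (adjusted p = 0.658) and 0.29 ± 0.18 in YC minus D0 (adjusted p = 0.166).

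Cxcl10 is a secreted chemokine that draws T and NK cells through the receptor Cxcr3, is induced by interferon gamma as well as type I interferon, and lies on chromosome 5 (92346638 to 92348889, minus strand). It had 1.34, 4.99 and 8.72 RPKM in the lowest, median and highest YC liver, against 4.12, 6.34 and 17.9 RPKM in vehicle livers and 4.65, 5.79 and 6.87 RPKM in D0 livers. Its low YC values came from 3 livers, YC 1 with 1.34 RPKM, YC 2 with 1.53 RPKM and YC 7 with 2.29 RPKM, and the other YC livers lay inside the vehicle range. Vehicle livers lay on both sides of the narrow D0 range, 4 above it and 3 below it. Cxcl10 fell 1.83-fold in YC livers against vehicle livers (log2 fold change -0.87 ± 0.32 SE, adjusted p = 0.0272). That call was lost without any one of vehicle 2, vehicle 3, vehicle 4, YC 1, YC 2 or YC 7 (adjusted p up to 0.0796) and when YC and vehicle livers were fitted without D0 (adjusted p = 0.0624). Of the 13 alternative settings other than single libraries left out, with the fit without D0 among them, 11 kept the call. Vehicle minus D0 was 0.30 ± 0.32 (adjusted p = 0.433) and YC minus D0 was -0.57 ± 0.33 (adjusted p = 0.151), the second passing the threshold after rescaling (-0.87, adjusted p = 0.0344).

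**Figure D3:**
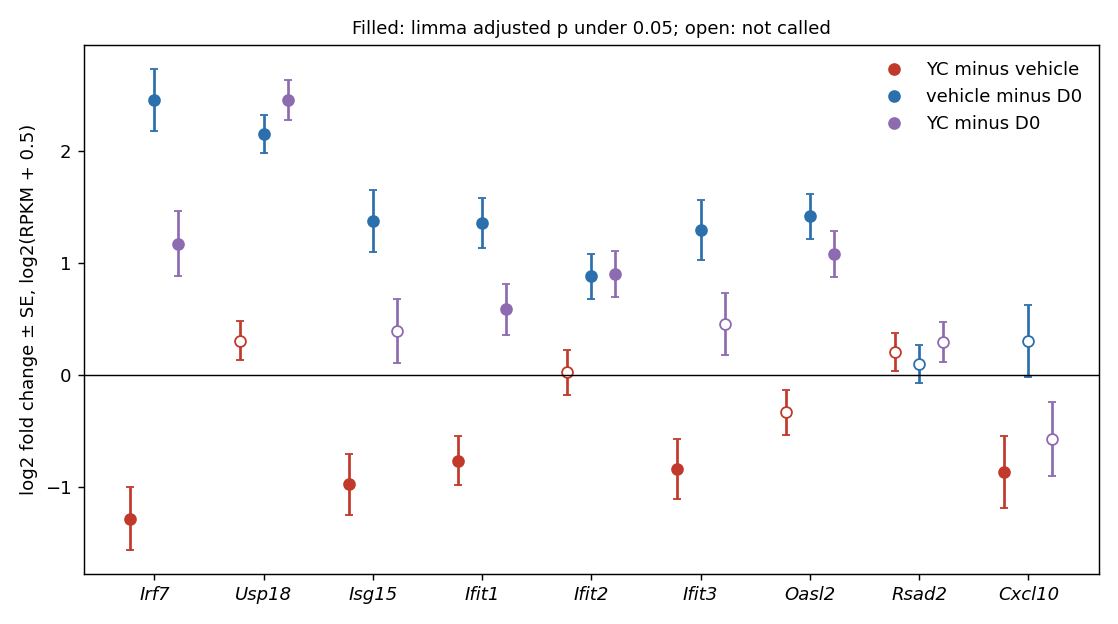
Log2 fold changes of the 9 members with their SE in the 3 comparisons of YC, vehicle and D0 livers, from limma on log2(RPKM + 0.5), with filled points called at an adjusted p under 0.05. Irf7, Isg15, Ifit1 and Ifit3 are called higher in vehicle minus D0 and lower in YC minus vehicle; Usp18 is called at 2.15 and 2.45 against D0 and not between YC and vehicle.

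On the RPKM scale, the order of the medians in vehicle livers was Irf7, Isg15, Ifit3, Usp18, Cxcl10, Oasl2, Rsad2, Ifit1 and Ifit2, and each neighbouring pair overlapped in its range over the 8 livers. In YC livers Irf7 stood first with a median of 35.0 RPKM, Usp18 followed with 17.1 RPKM and Isg15 with 13.4 RPKM. In D0 livers Irf7 and Isg15 again led with 14.0 and 9.20 RPKM, while Usp18, with a median of 2.97 RPKM, lay below Rsad2 with 3.86 RPKM.

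Members rose and fell together from liver to liver within a group. On the log2 scale, the deviations from the group means had a median Pearson r of 0.536 over the 36 pairs of members (0.0958 to 0.875), computed over 22 libraries that also share their depth and scaling. Without vehicle 3 the median was 0.378 (-0.204 to 0.803), with 33 of 36 pairs positive, so part of the likeness rests on that library. Isg15 (r = 0.909) and Ifit3 (r = 0.882) followed the mean of the other members most closely, and Usp18 (r = 0.536, or 0.279 without vehicle 3) least. Vehicle 3 was the highest vehicle liver for 8 of the 9 members, YC 5 was the highest YC liver for 5 and YC 7 for 4, and YC 1 was the lowest YC liver for 5.

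Among all other tested genes, those whose deviations were most like the members' mean were Xaf1 (r = 0.932 over 22 libraries), Rtp4 (0.930), Ifit3b (0.907), Gm12250 (0.886), Oas1a (0.877), Phf11b (0.872), Themis2 (0.854) and Oas1g (0.852). Xaf1, Rtp4, Ifit3b, Oas1a and Oas1g are on the list of other type I interferon-induced genes. Without vehicle 3 their values ran from 0.700 for Themis2 to 0.882 for Rtp4, and Phf11b, Oas1g and Themis2 then ranked 12, 15 and 28 among the other tested genes. These are descriptions of likeness over livers and carry no test.

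**Figure D4:**
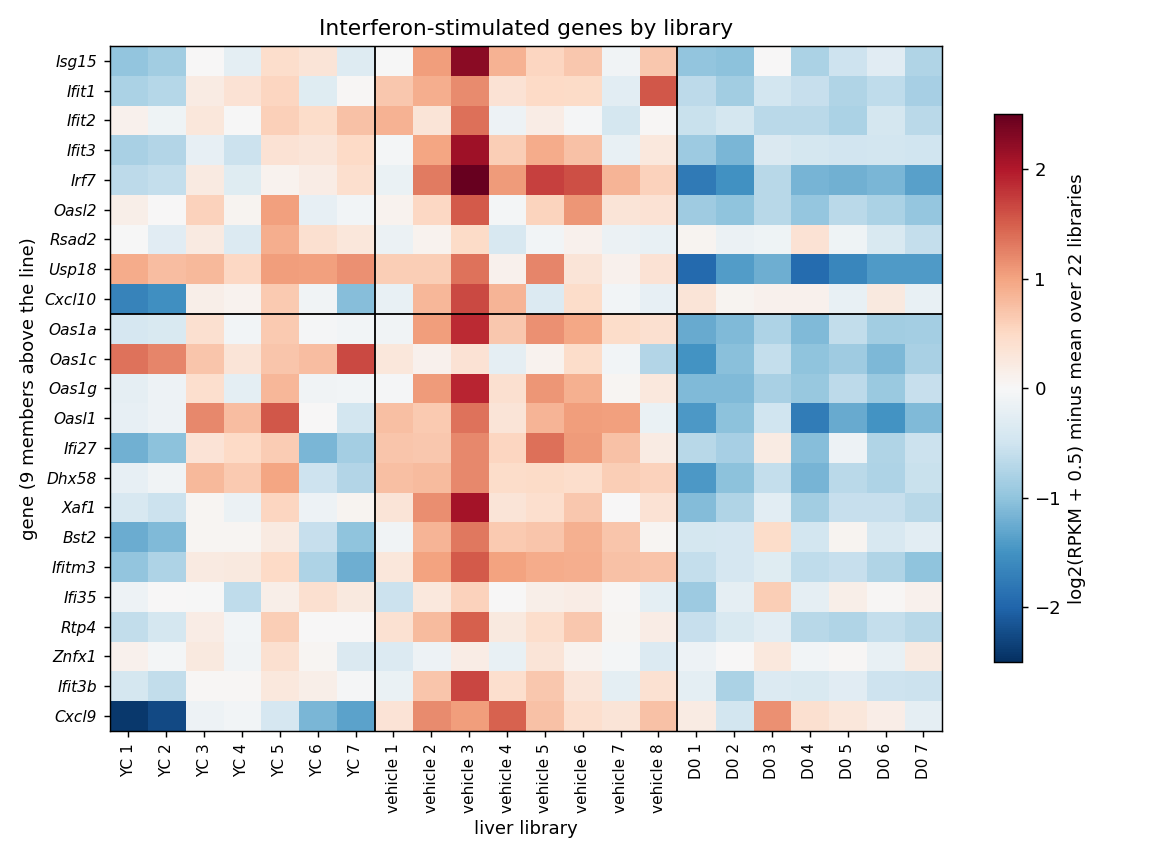
Log2(RPKM + 0.5) of the 9 members (above the line) and of 14 further genes named in the text, less each gene's mean over the 22 libraries, with YC, vehicle and D0 livers separated by vertical lines. Vehicle 3 is the reddest column, YC 1 and YC 2 are pale or blue for Isg15, Ifit1, Ifit3, Irf7 and Cxcl10 but red for Usp18 and Oas1c, and the D0 columns are blue for most genes other than Rsad2 and Cxcl10.

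Of 53 other type I interferon-induced genes listed for this report, 49 had a row and 47 were tested, and Mx1, Mx2, Oas1b and Ifi44l were not analysed here. In vehicle minus D0, 36 were called higher and 2 lower, with a median log2 fold change of 0.89 against 0.00 for all genes. In YC minus vehicle, 14 were called lower and 4 higher (median -0.23 against 0.31 for all genes), or 26 lower and 1 higher after rescaling (median -0.52). In YC minus D0, 27 were called higher and 1 lower (median 0.52 against 0.25), or 14 higher and 4 lower after rescaling. Before rescaling, 28.2% of all genes were called higher and 29.9% lower in vehicle minus D0. The shares were 44.6% and 6.14% in YC minus vehicle, and 41.2% and 12.3% in YC minus D0.

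Ifitm3, Bst2 and Ifi27 of that list fell in YC livers against vehicle livers. Among the genes of the list with a mean of at least 5 RPKM, 8 were called lower and 3 higher there. Ifitm3, which stops viruses from entering through endosomes, had a median of 194 RPKM in YC livers (142 to 466), 625 RPKM in vehicle livers (402 to 957) and 220 RPKM in D0 livers (165 to 267), and it fell by 1.29 on the log2 scale in YC minus vehicle (SE 0.23, adjusted p = 9.76e-05). Bst2, or tetherin, which holds budding virus at the cell surface, had a median of 190 RPKM in YC livers, 462 in vehicle livers and 215 in D0 livers (log2 fold change -1.15 ± 0.24 in YC minus vehicle, adjusted p = 0.000419). Ifi27 had medians of 46.5, 139 and 51.6 RPKM in YC, vehicle and D0 livers and fell by 1.20 (SE 0.28, adjusted p = 0.00104). For these 3 genes YC minus D0 was not called, with log2 fold changes of 0.21, -0.31 and 0.15, although Bst2 was called lower after rescaling (-0.65, adjusted p = 0.037).

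Relatives of Oasl2 did not move as one. Oas1a, an oligoadenylate synthetase, was lower in YC than in vehicle livers (log2 fold change -0.80 ± 0.21, adjusted p = 0.00342) and Oas1g likewise (-0.63 ± 0.23, adjusted p = 0.0251), while both were higher in vehicle than in D0 livers (1.75 and 1.58). Oas1c was higher in YC than in vehicle livers, with medians of 2.87 and 1.62 RPKM against 0.48 RPKM in D0 livers (0.93 ± 0.19 in YC minus vehicle, adjusted p = 0.000388, and 0.64 after rescaling). Oasl1 was higher in vehicle than in D0 livers (1.95 ± 0.27, adjusted p = 2.96e-06) and not called in YC minus vehicle (-0.34 ± 0.27, adjusted p = 0.31). These genes are close copies of each other, and how shared reads were assigned is not given. Dhx58, an RNA helicase of the RIG-I family, was higher in vehicle than in D0 livers (1.55 ± 0.22) and lower in YC than in vehicle livers (-0.53 ± 0.22, adjusted p = 0.0449). Ifi35 and Znfx1, the most abundant members called in no comparison, had log2 fold changes of -0.05 and 0.10 in YC minus vehicle.

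Genes best known for induction by interferon gamma were listed apart. Of 29 listed, 28 had a row and 27 were tested; 4 were called lower and 4 higher in YC minus vehicle (median -0.17), or 13 lower and 1 higher after rescaling. In vehicle minus D0, 6 were called higher and 2 lower (median 0.35), and in YC minus D0, 5 were called higher and 3 lower (median 0.17), or 4 higher and 6 lower after rescaling (median -0.08). The shares of all genes called before rescaling were 44.6% higher and 6.14% lower in YC minus vehicle. They were 28.2% and 29.9% in vehicle minus D0, and 41.2% and 12.3% in YC minus D0. Cxcl9, a chemokine for the same receptor as Cxcl10, had a median of 1.95 RPKM in YC livers (0.513 to 4.69), 8.52 RPKM in vehicle livers (6.31 to 14.6) and 5.72 RPKM in D0 livers (3.44 to 11.5), and no YC liver reached the vehicle range. It fell by 1.89 on the log2 scale in YC minus vehicle (SE 0.32, adjusted p = 5.35e-05) and by 1.32 in YC minus D0 (SE 0.33, adjusted p = 0.00158). Tgtp1, a GTPase directed at intracellular parasites, was lower in YC than in vehicle livers (-0.95 ± 0.35, adjusted p = 0.0269). Cd274, the T-cell inhibitory ligand PD-L1, was higher in YC livers, with medians of 3.12 RPKM against 1.12 in vehicle and 1.13 in D0 livers (0.98 ± 0.19 in YC minus vehicle, adjusted p = 0.000192). Irf1, a transcription factor of the gamma response, was higher in YC than in vehicle livers (0.60 ± 0.18, adjusted p = 0.00939), a call lost after rescaling (0.26). Gbp8, a guanylate-binding protein, was also higher in YC than in vehicle livers (0.47 ± 0.18, adjusted p = 0.0354), and this call was lost after rescaling too (0.19). Irf8, a transcription factor of myeloid cells, was higher in vehicle than in D0 livers (0.95 ± 0.16) and Psmb10, an immunoproteasome subunit, likewise (0.65 ± 0.19, adjusted p = 0.00608). Nlrc5, which drives MHC class I genes, was lower in vehicle than in D0 livers (-0.67 ± 0.23, adjusted p = 0.0177). Iigp1 and Psmb8 were abundant and called in no comparison.

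**Figure D5:**
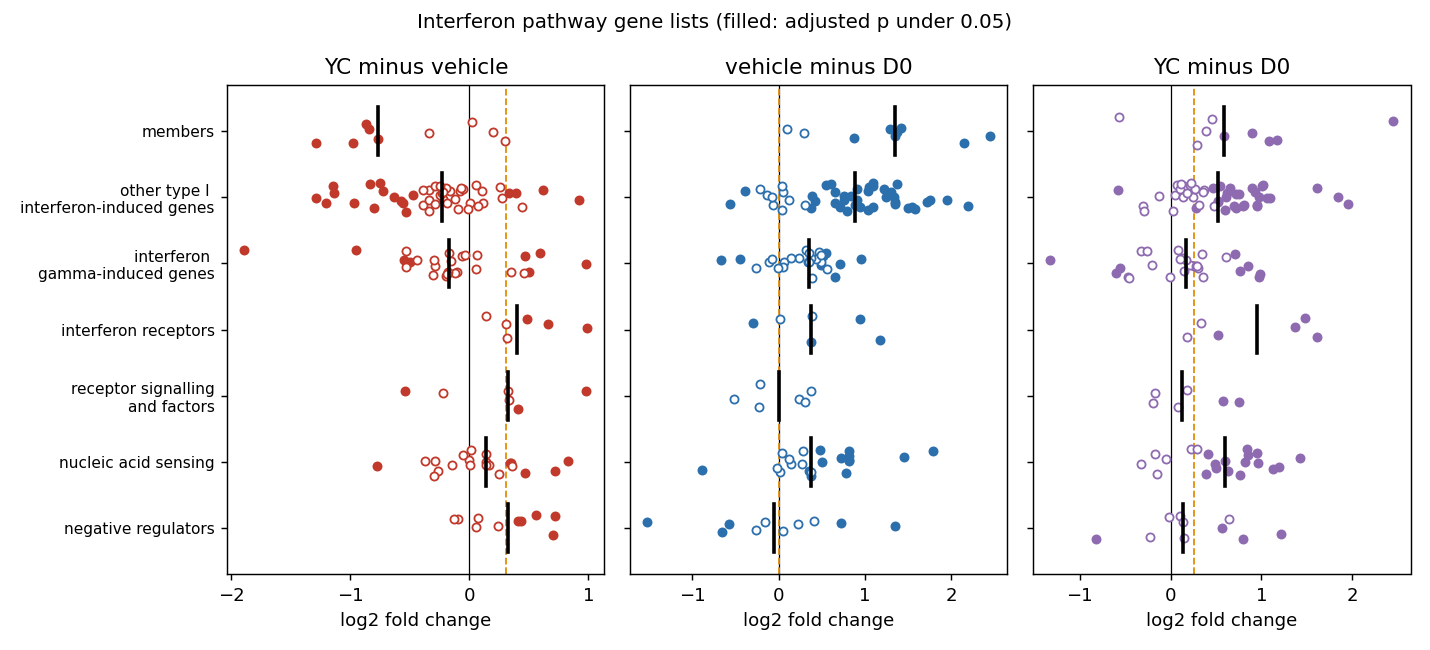
Log2 fold changes of the tested genes of 7 interferon pathway lists in the 3 comparisons, with filled points called at an adjusted p under 0.05, black bars for list medians and the orange dashed line for the median of all 12537 tested genes (0.31, 0.00 and 0.25). Members and other type I genes lie mostly right of the line in vehicle minus D0 and left of it in YC minus vehicle. The list medians of receptors (0.40) and negative regulators (0.33) sit near or right of it in YC minus vehicle, with single genes on both sides.

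Ligand transcripts were scarce. Of 21 interferon ligand genes listed, 9 had a row, and none passed the filter on low values. All but Ifnk stayed at or below 0.162 RPKM in every library. Ifnk, interferon kappa, named because of its values, had 0.126, 0.751 and 1.87 RPKM in the lowest, median and highest YC liver, against 0, 0.0631 and 0.358 RPKM in vehicle livers, and it was listed at 0 in 3 of 8 vehicle and 6 of 7 D0 livers. It had no test, and Ifnb1 was not analysed here.

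Of 6 receptor genes tested, 3 were called higher and 0 lower in YC minus vehicle, by limma at the adjusted p, beside 44.6% higher and 6.14% lower over all genes, and 1 was called higher and 0 lower after rescaling. Ifnar1, a chain of the type I receptor, had a median of 7.98 RPKM in YC livers against 5.40 in vehicle and 6.70 in D0 livers (0.48 ± 0.09 in YC minus vehicle, adjusted p = 0.000126, and 0.16 after rescaling, not called). Ifnar2, its partner, was not called in YC minus vehicle (0.14 ± 0.10, adjusted p = 0.256) and was higher in vehicle than in D0 livers (0.38 ± 0.10, adjusted p = 0.00364). Ifngr1, the ligand-binding chain for interferon gamma, was higher in YC than in vehicle livers (0.66 ± 0.15, adjusted p = 0.000983, and 0.32 after rescaling, not called) and higher in vehicle than in D0 livers (0.95 ± 0.15). Ifngr2 was called in no comparison. Ifnlr1, the specific chain of the interferon lambda receptor, had a median of 1.13 RPKM in YC livers, 0.175 in vehicle livers and 0.0728 in D0 livers (0.99 ± 0.18 in YC minus vehicle, adjusted p = 0.000105, called also after rescaling). Its highest values were 0.742 RPKM in vehicle livers and 0.0857 RPKM in D0 livers. It thus passed the filter of 0.5 RPKM in 7 libraries mostly through YC livers, and its calls are not independent of that filter. Il10rb, the other chain of that receptor, was higher in vehicle than in D0 livers (1.17 ± 0.15, adjusted p = 7.32e-07) and not called in YC minus vehicle (0.31 ± 0.15, adjusted p = 0.082).

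Of the 6 kinases and factors behind the receptors, none was called in vehicle minus D0, by limma at the adjusted p. Over all genes 28.2% were called higher and 29.9% lower there. Stat2 had medians of 23.4, 13.8 and 20.9 RPKM in YC, vehicle and D0 livers and was called in no comparison. Irf9, its DNA-binding partner, was lower in YC than in vehicle livers (-0.54 ± 0.18, adjusted p = 0.0166), with a median of 10.1 RPKM against 15.2. The kinase Jak2 was higher in YC livers, at 7.46 RPKM against 3.18 in vehicle livers (0.98 ± 0.15, adjusted p = 2.51e-05, 0.66 after rescaling). Jak1 was higher in YC than in vehicle livers too (0.41 ± 0.13, adjusted p = 0.0113), a call lost after rescaling (0.07), and Tyk2 was not called there (0.33 ± 0.17, adjusted p = 0.11).

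Nucleic acid sensors and their adaptors were tested in 21 cases. In vehicle minus D0, 12 were called higher and 1 lower, beside 28.2% higher and 29.9% lower over all genes. In YC minus vehicle, 5 were called higher and 1 lower, or 2 higher and 5 lower after rescaling, and in YC minus D0, 15 were called higher and 0 lower, or 10 and 3 after rescaling. Over all genes, before rescaling, 44.6% were called higher and 6.14% lower in YC minus vehicle. In YC minus D0 these shares were 41.2% and 12.3%. Irf5, a factor downstream of Toll-like receptors, was higher in vehicle than in D0 livers (1.79 ± 0.17, adjusted p = 1.32e-08), and so were Tlr7 (1.45 ± 0.20), a sensor of single-stranded RNA, and its neighbour Tlr8 (0.81 ± 0.15). No D0 liver reached the filter of 0.5 RPKM for Tlr7 (at most 0.496) or Tlr8 (at most 0.490). Both passed it only through day 28 livers. Their calls against D0, and their part in the counts above, are therefore not independent of that filter. Tbk1, the kinase that activates Irf3, was lower in vehicle than in D0 livers (-0.89 ± 0.12, adjusted p = 1.75e-06) and higher in YC than in vehicle livers (0.72 ± 0.12, adjusted p = 4.29e-05). Tlr3, the sensor of double-stranded RNA, was higher in YC than in vehicle livers (0.83 ± 0.17, adjusted p = 0.000423), as was its adaptor Ticam1 (0.47 ± 0.14, adjusted p = 0.00945), the second not after rescaling (0.14). Rnaseh2c, a subunit of an enzyme that clears RNA from DNA hybrids, was lower in YC than in vehicle livers (-0.78 ± 0.19, adjusted p = 0.0017). Irf3, a factor activated by Tbk1, and Mavs, the adaptor of RNA helicases, were called in no comparison, though both were called lower in YC minus vehicle after rescaling (-0.64 and -0.63).

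Among 10 negative regulators of the pathway, 5 were called higher and 0 lower in YC minus vehicle, by limma at the adjusted p, and 0 in either direction after rescaling. The count of 5 is near the share of all genes, of which 44.6% were called higher and 6.14% lower there. In vehicle minus D0 the shares of all genes were 28.2% higher and 29.9% lower. The 5 called higher in YC minus vehicle were the phosphatases Ptpn2 (0.56 ± 0.13) and Ptpn11 (0.43 ± 0.11), Pias1 (0.41 ± 0.12), Socs3 (0.72 ± 0.21) and the ubiquitin ligase Rnf125 (0.70 ± 0.28). In vehicle minus D0 Nlrx1 (1.34 ± 0.18) and the phosphatase Ptpn6 (0.72 ± 0.14) were called higher, and Ptpn2 (-0.58), Ptpn11 (-0.66) and Rnf125 (-1.52) lower. Irf2 and Cish were called in no comparison. Of the genes that act with Cxcl10, the receptor Cxcr3 had a median of 0.533 RPKM in YC livers, 0.829 in vehicle livers and 0.444 in D0 livers and was not called, and Dpp4, the protease that trims Cxcl10, was lower in vehicle than in D0 livers (-0.72 ± 0.19, adjusted p = 0.00259) and in YC than in D0 livers (-1.14 ± 0.20, adjusted p = 3.57e-05), and was called lower in YC minus vehicle after rescaling (-0.76, adjusted p = 0.0042).

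Markers of immune cells moved with several of these groups. The 14 Kupffer cell and macrophage markers summed to 492 to 1303 RPKM in YC livers (median 696), 724 to 2344 RPKM in vehicle livers (median 1094) and 183 to 376 RPKM in D0 livers (median 288), and 12 of 14 were called higher in vehicle minus D0, as were 12 of 14 in YC minus D0. In YC minus vehicle 1 was called higher and 3 lower, or 0 and 6 after rescaling. Itgam, called higher in all 3 comparisons, had at most 0.332 RPKM in D0 livers. It passed the filter of 0.5 RPKM only through day 28 livers. Over all genes, 28.2% were called higher in vehicle minus D0 and 41.2% higher in YC minus D0. In YC minus vehicle, 44.6% of all genes were called higher and 6.14% lower. The 13 T and NK cell markers summed to 5.46 to 16.7 RPKM in YC livers (median 13.0), 8.65 to 73.1 RPKM in vehicle livers (median 29.5) and 6.63 to 17.0 RPKM in D0 livers (median 9.99), and 5 of the 8 tested were called lower in YC minus vehicle, among them Ccl5 (-1.51 ± 0.39) and Cd3d (-1.10 ± 0.24). Vehicle 3 held the highest sum of both lists. B cell markers summed to 4.29 to 13.9 RPKM in YC livers, 7.31 to 26.6 RPKM in vehicle livers and 5.10 to 11.5 RPKM in D0 livers, with 2 of 4 tested lower in YC minus vehicle. Neutrophil markers summed to 41.5 to 409 RPKM in YC livers (median 225), 46.6 to 169 RPKM in vehicle livers (median 61.6) and 5.26 to 58.6 RPKM in D0 livers (median 11.4), so YC and vehicle livers overlapped. Of the 11 tested, 5 were called higher and 0 lower in YC minus vehicle, or 3 and 0 after rescaling. The count of 5 is near the 44.6% of all genes called higher there. Endothelial sums had medians of 159, 204 and 172 RPKM in YC, vehicle and D0 livers, with 1 marker of 10 called higher and 2 lower in YC minus vehicle, or 0 and 5 after rescaling. Hepatocyte sums had medians of 44659, 73074 and 59313 RPKM in YC, vehicle and D0 livers. They ran from 32358 to 63851 RPKM in YC livers and from 61096 to 94376 RPKM in vehicle livers. Of the 9 hepatocyte markers, 0 were called higher and 3 lower in YC minus vehicle, and likewise after rescaling. Among the 3 were Alb (-1.10 ± 0.21) and Serpina1a (-1.29 ± 0.20). The 9 plasmacytoid dendritic cell markers summed to medians of 615, 230 and 11.2 RPKM in YC, vehicle and D0 livers. Ly6d alone had medians of 608, 221 and 5.50 RPKM in the same order, so the sum mostly reflects this 1 gene. Only 3 of the 9 passed the filter on low values, and Siglech and Ccr9 stayed below it. In YC minus vehicle 1 of the 3 was called higher and 0 lower, or 1 and 1 after rescaling. Ly6d was the one higher (1.27 ± 0.36, adjusted p = 0.00604). Tcf4 (-0.05, adjusted p = 0.842) and Irf8 (-0.19, adjusted p = 0.349) did not follow it. No marker of these lists was at 0 in all libraries. The part of these cells in the levels of the interferon-stimulated genes was not tested.

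Vehicle 3, YC 4 and vehicle 1, the libraries with muscle or pancreas transcripts, were left out together as a check chosen after seeing the data. In YC minus vehicle the same 5 members were then called lower, Irf7 by 1.25 on the log2 scale (adjusted p = 8.11e-05), and Usp18 (0.50, adjusted p = 0.0162) and Ifit2 (0.35, adjusted p = 0.0429) were called higher. In vehicle minus D0 7 members were still called higher, and in YC minus D0 4 were, without Ifit1. The YC group was also limited to YC 1, YC 2 and YC 3, the livers with Y-linked transcripts as in all vehicle livers. The same 5 members were then called lower in YC minus vehicle. Irf7 had a log2 fold change of -1.53 (adjusted p = 0.00252), Isg15 -1.36 and Cxcl10 -1.39 (adjusted p = 0.0045). Over the members, the mean log2 value, less each gene's mean over all libraries, was -0.42 in YC 1 and -0.45 in YC 2. In YC 3 to YC 7 it ran from -0.04 to 0.63, so this choice of livers leans towards a larger fall. YC 4 to YC 7 had a Y-linked sum of 0 RPKM, so YC and vehicle livers also differed in these transcripts. The part of that difference in YC minus vehicle was not tested separately.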

How the data were processed

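The authors deposited 1 table of RPKM values with 1 column for each of 22 libraries and no pooling, and 0 value columns without a sample. Per the labels' protocols, liver RNA was extracted with TRIzol, selected by poly(T), fragmented and copied to cDNA. The tools TopHat 1.4.1 and Cufflinks 1.3.0 and the build mm10 appear per the submitters' processing notes. The annotation, the use of strand and the handling of reads shared by copies were not given in the sources used here. Groups and replicate numbers come from titles. Nothing there says that replicates are separate animals, so a p-value measures only the spread among the libraries at hand, possibly a technical one.

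A gene was kept if 7 or more libraries reached 0.5 RPKM, which left 12537, fitted as log2(RPKM + 0.5) with limma 3.58.1 (lmFit, eBayes with trend and robust, statmod 1.5.0, R 4.3.3), all 22 libraries in 1 model of 3 groups, without covariates. Two-sided p-values were adjusted by the Benjamini-Hochberg method over all 12537 genes. Fold changes on this scale understate those of low genes. The script was tested on simulated data. Other steps used Python 3.11.15, numpy 2.4.6, pandas 2.3.3 and matplotlib 3.10.9. Of the table's names, 27 had been turned into dates and 2 were repeated. Depth was estimated from the steps of low values of 2706 genes with 1 transcript, and too few values came out whole for a count test. Promoters are from RefSeq (GRCm38.p6), and gene coordinates from GENCODE on mm10.

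The members and lists were chosen with earlier results of these data known. Named beside the members were, by rule, all genes of lists of up to 6 (1 is not reported here), and of longer pathway lists up to 4 called genes with the smallest adjusted p in YC minus vehicle and in vehicle minus D0 and 2 abundant uncalled ones, the 8 genes most like the members, and leading cell markers. Alternatives were other pseudocounts, filters, scalings, fits, replicate blocks and libraries left out.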

Additional observations from a re-analysis of the deposited data

How the results depend on the processing

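Of 720 recomputed member fold changes, 690 kept their direction (where called) and side of the threshold, 20 lost and 10 gained a call, and 0 called values turned. Of the main counts, members called higher in YC minus D0 numbered 5, and 3 with a filter at a mean of 5 RPKM (fewer members are then tested), 3 with quantile normalization and 3 with the YC livers limited to those with Y-linked transcripts. Members called lower in YC minus D0 numbered 0, and 1 (Cxcl10) under median-ratio scaling, quantile normalization, array weights and the YC livers with Y-linked transcripts; the cause was not tested. Members called higher in YC minus vehicle numbered 0, 1 without vehicle 3, and 2 without vehicle 1, vehicle 3 and YC 4. Leaving out each library in turn gave 4 to 6 members lower and 0 to 1 higher in YC minus vehicle, 7 higher and 0 lower in vehicle minus D0, and 4 to 5 higher and 0 lower in YC minus D0. The gamma-induced list was the least steady, with 4 to 14 genes called higher in vehicle minus D0, the 14 coming without D0 3. The main fit did not pair libraries by replicate number. In each comparison at most 2 of 7 same-numbered pairs correlated above 0.1 in their deviations (-0.386 to 0.227 over all comparisons). Pairs of other numbers were not computed beside them, so this does not settle whether libraries were paired. With the replicate block, 5 members were called lower in YC minus vehicle, 7 higher in vehicle minus D0 and 5 higher in YC minus D0, and 0 in the other directions. Depth limits the ligands other than Ifnk, all at or below 0.162 RPKM, more than the members.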
